A study of Danio rerio with 4 samples.

Results

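The transcript described here is lin28a, measured in single cells of the zebrafish telencephalon before and after a stab lesion. It was taken by its symbol in the deposited gene annotation, where 1 of the 25107 features carries it (ENSDARG00000016999). Cells were counted as lin28a-positive when they held at least 1 lin28a UMI (a unique molecular identifier, which counts 1 captured transcript). The main description covers cells in which fabp7a, the brain lipid-binding protein of radial glia, made up at least 0.2% of UMIs, called fabp7a cells below. The 4 libraries held 4732 cells after filtering, and lin28a-positive fabp7a cells numbered 1 of 701 in the uninjured library, 49 of 1019 in the injured library, 2 of 1299 in the uninjured_MTZ library and 21 of 1342 in the injured_MTZ library. The gene and its positive cells were chosen by the lin28a counts themselves, so these counts and everything that separates positive from negative cells are given as descriptions, without a test.

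The sort took dTomato-positive cells of dissociated telencephalons. The donors were adult zebrafish, 3 to 7 months old, with a GFAP:dTomato reporter in which the gfap promoter marks radial glia. Each library was 1 pool of 7 telencephalons, so there was no replicate of any group, and every interval below is a 95% interval for counting error only. The uninjured and injured groups were fish of the reporter line without and with a stab lesion examined at 3 days. The uninjured_MTZ and injured_MTZ groups were fish that also carried Tg[mpeg1:NTR-EYFP]w202, in which the mpeg1 promoter of microglia and macrophages drives nitroreductase, and that received metronidazole (MTZ), a prodrug that nitroreductase turns toxic. MTZ, strain and pool of fish therefore cannot be told apart. One treatment label reads as lesioned for all 4 libraries, and the groups follow the sample titles.

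Lin28 proteins bind RNA through a cold-shock domain and zinc knuckles. They are best known for holding back the maturation of let-7 microRNAs, which repress growth and cell-cycle transcripts such as those of the Hmga, Myc, Igf2bp and cyclin D families, and for acting on the translation of messenger RNAs. In the zebrafish retina, lin28a is induced in Müller glia after injury together with ascl1a, hbegfa, stat3 and insm1a as these glia re-enter the cell cycle. Radial glia of the adult zebrafish telencephalon are the neural stem cells of that tissue and divide more often after a stab wound.

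The 4 libraries held 741 to 1657 barcodes with a median of 2510 to 3939 UMIs. Between 0 and 6 barcodes were shared by each pair of libraries. Of the lin28a-positive fabp7a cells, 3 in the injured library carried a barcode that also occurred in an uninjured library. Of the 2 positive cells of the uninjured_MTZ library, 1 shared its barcode with a lin28a-positive cell of the injured library. The doublet filter removed 4 lin28a-positive barcodes, 2 from each injured library. These held 49 and 47 lin28a UMIs in the injured and 55 and 24 in the injured_MTZ library. Over all barcodes without a filter, the injured and injured_MTZ libraries held 755 and 310 lin28a UMIs, against 659 and 231 in kept cells.

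lin28a was all but limited to the lesioned libraries. The fabp7a cells of the uninjured library held 1 lin28a UMI, a level of 0.358 CPM (UMIs scaled to the summed UMIs of the cells; interval 0.00906 to 1.99). Those of the injured library held 592 UMIs, or 121.0 CPM (111.4 to 131.2). The uninjured_MTZ library held 2 UMIs, or 0.568 CPM (0.0688 to 2.05), and the injured_MTZ library 231 UMIs, or 37.3 CPM (32.7 to 42.4). The injured library was the highest, the injured_MTZ library was second, and the intervals of both uninjured libraries overlapped each other and lay below those of both injured ones. They count UMIs and leave out the spread between pools and between the cells of a pool. The 231 UMIs of the injured_MTZ library lay in 21 cells. The other Lin28 genes were not seen in this way in fabp7a cells. There lin28b had 0 UMIs in all 4 libraries. The feature listed as LIN28A in capitals, a separate gene identifier, had 1 UMI in fabp7a cells of the uninjured library and 0 in those of the others.

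On the log2 scale the injured library exceeded the uninjured one by 8.40 (5.92 to 13.71), a ratio that rests on 1 UMI in the uninjured library. The injured_MTZ library exceeded the uninjured_MTZ one by 6.04 (4.17 to 9.09), with 2 UMIs in the latter. By log2 ratio, lin28a was number 5 of 9398 genes with at least 50 UMIs in the first comparison. It was number 4 of 9841 in the second. At least 2-fold higher were 5.69% and 4.77% of these genes. lin28a was chosen by these counts and met the 50 UMIs through the lesioned libraries, so its rank restates that choice. Between the lesioned libraries the injured_MTZ level was lower by a log2 ratio of -1.70 (-1.92 to -1.48), and 3.77% of the 10286 genes compared were at least 2-fold lower there.

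**Figure D1:**
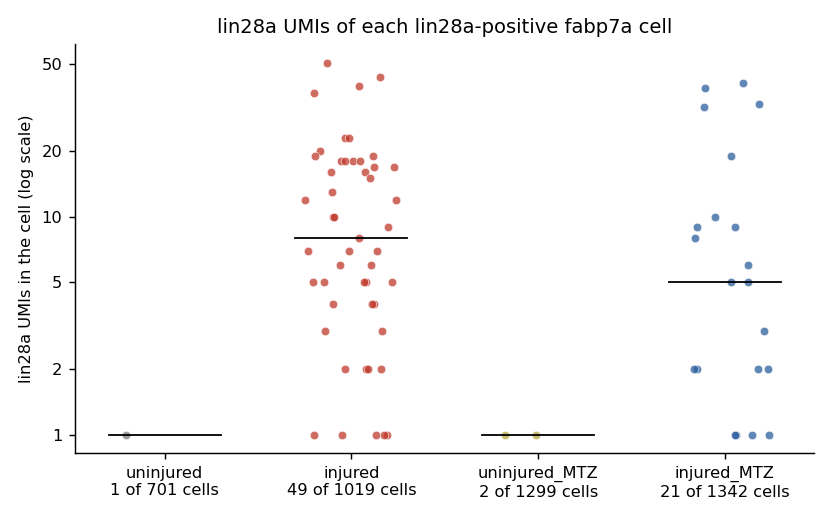
lin28a UMIs in each lin28a-positive fabp7a cell (vertical axis, log scale) by library (horizontal axis, with the number of positive cells of all fabp7a cells); each point is 1 cell and the line is the median of the positive cells. The 49 cells of the injured library reach 51 UMIs and the 21 cells of the injured_MTZ library reach 41, while the 3 cells of the uninjured libraries hold 1 UMI each.

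The transcript was concentrated in few cells. In the injured library 4.81% of fabp7a cells (exact Clopper-Pearson interval 3.58 to 6.31) held a lin28a UMI, and in the injured_MTZ library 1.56% (0.971 to 2.38). The shares in the uninjured libraries were 0.143% (0.00361 to 0.792) and, with MTZ, 0.154% (0.0187 to 0.555). With every cell thinned to 1000 UMIs, the shares were 2.76% (27 of 977 cells) in the injured and 0.940% (12 of 1277) in the injured_MTZ library, against 0 of 666 in the uninjured library, where a floor of 3 cells allows a share of up to 0.450% and the Clopper-Pearson interval up to 0.552%, and 0 of 895 in the uninjured_MTZ library, where they allow up to 0.335% and 0.411%. The injured and injured_MTZ intervals did not overlap on either scale, but they cover counting error within 1 pool each and not the spread between pools.

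**Figure D2:**
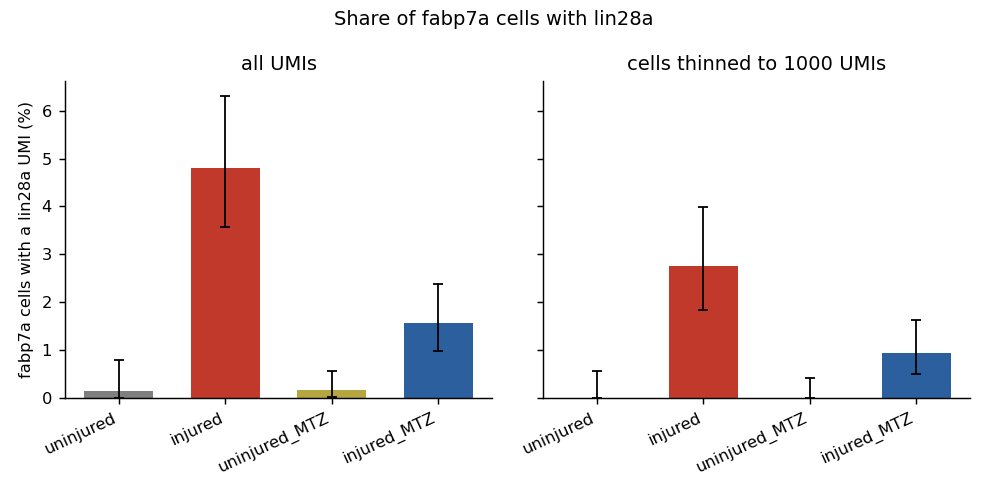
Share of fabp7a cells with at least 1 lin28a UMI (percent) in the 4 libraries, on all UMIs (left) and with each cell thinned to 1000 UMIs (right); bars are the shares and whiskers exact 95% Clopper-Pearson intervals. The injured library stands highest in both panels at 4.81% and 2.76%, and the thinned share is 0 in both uninjured libraries.

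The level within a positive cell varied widely. The positive cells of the injured library held a median of 8 lin28a UMIs, with quartiles of 4 and 18 and a highest value of 51. Per 10000 UMIs of the cell this was a median of 7.94, from 0.354 to 45.3. The injured_MTZ cells held a median of 5, with quartiles of 2 and 10 and a highest value of 41, or a median of 5.09 per 10000 (1.19 to 21.0). At least 10 UMIs were held by 23 of the 49 injured cells and by 6 of the 21 injured_MTZ cells. The cell with most lin28a gave 8.61% of the UMIs of the injured library and 17.7% of those of the injured_MTZ library.

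Most positive cells held gfap, whose promoter drives the reporter. A gfap UMI was found in 45 of the 49 positive cells of the injured library and in 18 of the 21 of the injured_MTZ library. Their fabp7a share ran from 0.228% to 6.07% in the injured library and from 0.565% to 5.89% in the injured_MTZ library. The median fabp7a share was 0.985% in positive and 2.27% in negative cells of the injured library, and 2.31% and 2.06% in the injured_MTZ library. The positive cells nearest above the limit in the injured library stood at 0.228%, 0.233% and 0.252% and held 6, 2 and 18 lin28a UMIs.

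Below the fabp7a limit, lin28a-positive cells were found in the injured library alone, in 7 of 49 cells with 67 UMIs. That was 14.3% of these cells (5.94 to 27.2), at a level of 181.1 CPM (140.4 to 230.0). The nearest below the limit stood at 0.194%, 0.183% and 0.156% of UMIs and held 15, 22 and 1 lin28a UMIs. These 7 cells also held elavl3, an RNA-binding protein of newborn neurons, at 0 to 55 UMIs each, with 0 in a single cell. Of the 27 genes of S and G2/M phase used below, a single cell held 1 and the rest held 11 to 18. The Notch target her4.1 had 0 UMIs in that cell with 1 such gene and 4 to 106 in the rest. None of the 262 cells below the fabp7a limit in the injured_MTZ library was positive. The floor of 3 cells allows up to 1.15% there and the interval up to 1.40%. As a check on free RNA, none of 157 cells with mature neuron markers in the injured_MTZ library (median 3024 UMIs; up to 1.91% and 2.32%) and none of 38 cells with microglia markers (median 7770 UMIs; up to 7.89% and 9.25%) held a lin28a UMI. In the injured library 2 of 17 cells with neuron markers did.

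lin28a was found more often in cells with cell-cycle transcripts and in deeper cells. A cell was counted as cycling when it held at least 2 of 27 genes of S and G2/M phase, such as pcna, mcm2 and top2a. In the injured library 27 of 176 cycling fabp7a cells were lin28a-positive, 15.3% (10.4 to 21.5), against 22 of 843 other cells, 2.61% (1.64 to 3.92). The lin28a level was 291.5 CPM (264.0 to 321.2) in the cycling and 52.4 CPM (45.1 to 60.6) in the other cells. With MTZ the shares were 9 of 218 cycling cells, 4.13% (1.90 to 7.69), and 12 of 1124 other cells, 1.07% (0.553 to 1.86), with levels of 121.7 CPM (105.0 to 140.4) and 9.05 CPM (6.53 to 12.2). Among the other, not cycling cells of the uninjured_MTZ library 2 of 1229 were positive, and the only positive cell of the uninjured library was a cycling one.

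Read the other way, after thinning to 1000 UMIs, 16 of 49 positive cells of the injured library were cycling (32.7%, 19.9 to 47.5) against 74 of 928 negative cells (7.97%, 6.31 to 9.91). With MTZ 5 of 21 positive cells were (23.8%, 8.22 to 47.2) against 102 of 1256 (8.12%, 6.67 to 9.77). On all UMIs the same shares were 55.1% against 15.4%, and 42.9% against 15.8%. The positive cells were also deeper, with a median of 10715 UMIs against 3761 in negative cells of the injured library, and of 10144 against 4081 in the injured_MTZ library. Among fabp7a cells with at least 8000 UMIs, a limit chosen after the values were seen, 25 of 82 cycling (30.5%, 20.8 to 41.6) and 16 of 78 other cells (20.5%, 12.2 to 31.2) of the injured library were positive, and those intervals overlapped. With MTZ the shares there were 8 of 67 (11.9%) and 7 of 69 (10.1%). The unlesioned libraries held fewer cells of this depth, above all with MTZ. The uninjured library had 0 of 15 cycling and 0 of 47 other cells positive. In the uninjured_MTZ library these were 0 of 10 and 0 of 7, with intervals up to 30.8% and 41.0%. The summed lin28a level in the deep cells of the lesioned libraries was higher in the cycling ones, but it rests on few positive cells. Its intervals did not overlap, but they count UMIs and leave out the spread between cells. With MTZ, the 188 UMIs of the deep cycling cells came from 8 positive cells, and single cells held 41, 39, 33 and 32 of them. The level was 393.2 CPM (354.9 to 434.5) in cycling against 169.2 CPM (142.6 to 199.3) in other cells of the injured library, and 225.1 CPM (194.0 to 259.6) against 44.1 CPM (30.0 to 62.6) with MTZ.

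For each gene, UMIs were summed over the positive and over the negative fabp7a cells of 1 library, without lin28a, and compared as CPM. Among 7584 genes with at least 50 UMIs in the injured library, 11.1% were at least 2-fold higher in lin28a-positive cells and 18.4% at least 2-fold lower, with a median log2 ratio over all genes of -0.09. Among 8245 genes in the injured_MTZ library, 11% were higher and 17.2% lower, with a median of -0.02. These shares moved with depth: in cells with at least 8000 UMIs, 212 of 4333 genes were higher in the injured library. With MTZ 265 of 3907 were. The injured_MTZ counts were 911 higher and 1415 lower genes, and with TMM scaling they were 573 higher and 1858 lower. TMM scaling moved the median of all genes to -0.23 in the injured and -0.26 in the injured_MTZ library, and each log2 ratio below moves down with that scaling by as much as the median of its library did. The libraries share no cells in these comparisons. Of the genes measured in both, 380 were at least 2-fold higher in both, which is 49.2% of those higher in the injured library, against 10.7% of all these genes that were higher in the injured_MTZ library, and 48.4% of those higher in the injured_MTZ library, against 10.6%. In the lower direction 555 genes were shared. They were 41.6% of those of the injured library against 15.7%, and 48.3% of those of the injured_MTZ library against 18.3%. In both libraries the positive cells were deeper and more often cycling, and the overlap was not computed at matched depth.

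**Figure D3:**
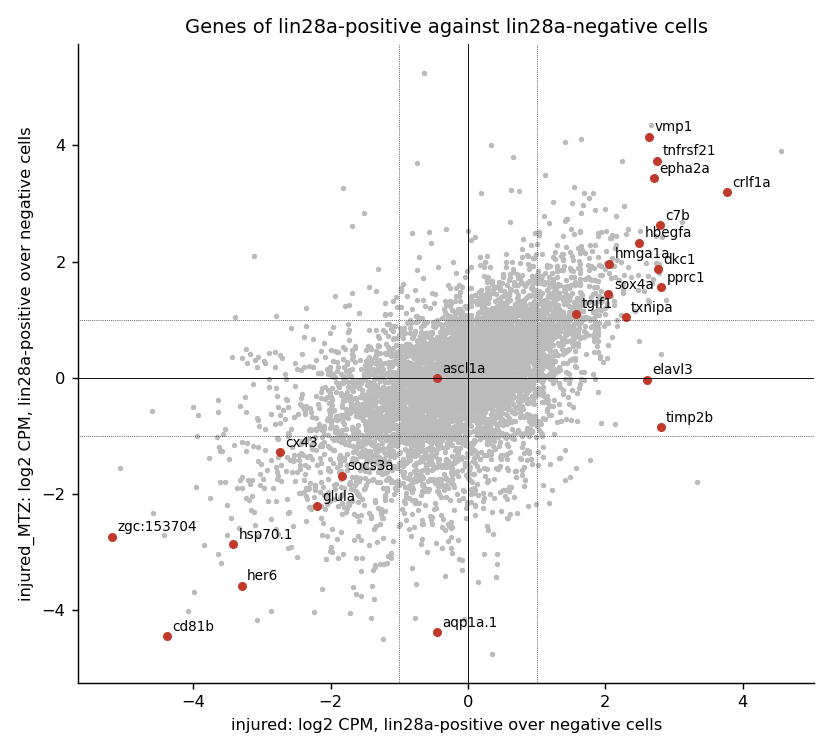
Each point is 1 gene measured in both lesioned libraries, by the log2 ratio of CPM in lin28a-positive over negative fabp7a cells in the injured (horizontal) and injured_MTZ library (vertical); dotted lines mark 2-fold and red points are genes named in the text. tnfrsf21 (2.76 and 3.74) stands high and her6 (-3.29 and -3.59) low in both, while elavl3 (2.61 and -0.03) and timp2b (2.80 and -0.85) are high in the injured library alone.

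Among the genes linked to Lin28 and let-7, hmga1a was higher in lin28a-positive cells of both lesioned libraries. hmga1a encodes a high-mobility group protein that opens chromatin, and Hmga transcripts are classical let-7 targets. Its level was 138.4, 336.6, 149.1 and 241.5 CPM in the fabp7a cells of the uninjured, injured, uninjured_MTZ and injured_MTZ libraries, so that both lesioned libraries were higher than both unlesioned ones. In lin28a-positive cells it reached 1012 CPM in the injured library against 243.4 CPM in negative cells, a log2 ratio of 2.06 (1.909 to 2.202), and 827.4 against 212.7 CPM in the injured_MTZ library, 1.96 (1.75 to 2.16). In the latter, 1 cell held 34.6% of the hmga1a UMIs of the positive cells. Its relative hmga1b went the other way at low counts, with log2 ratios of -1.76 and -2.24. hmga2 held 14, 26, 20 and 27 UMIs in fabp7a cells, in the above order of libraries, below the 50 UMIs asked of a gene. Over fabp7a cells of the injured and injured_MTZ libraries, the Pearson correlation with lin28a was 0.30 and 0.18 for hmga1a. Of the cyclin D and Igf2bp families, ccnd1 had 0.08 and 0.04, ccnd2a -0.02 and 0.04, and igf2bp2b 0.10 and -0.02. hmga1a thus does not stand for these let-7 target families.

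syncrip, an RNA-binding protein of messenger RNA transport and stability, had log2 ratios of 1.11 (0.91 to 1.30) and 0.91 (0.64 to 1.17). dgcr8, the partner of Drosha in cutting microRNA precursors, was higher in the injured library at 1.47 (0.79 to 2.12) but stood at 0.06 (-1.41 to 1.23) in the injured_MTZ library. dicer1, which cuts the hairpins, stood at 0.13 and 0.12, both below 0 under TMM scaling, as was the 0.06 of dgcr8. trim71, a ubiquitin ligase and itself a let-7 target, had 0.71 and 0.36, the latter -0.05 in cells with at least 8000 UMIs. Of the Myc genes, mych stood at 0.75 and -0.31, the latter 0.39 after thinning to 2000 UMIs, and mycb at -0.87 and -0.42. Of 21 measured genes of this list 5 were at least 2-fold higher and 3 lower in the injured library, with a median of 0.13 that became -0.01 under TMM scaling. With MTZ, 2 of 21 were higher and 5 lower, with a median of -0.00. These counts can be read against 11.1% and 11% of all genes higher, and 18.4% and 17.2% lower, in the injured and injured_MTZ libraries.

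The genes known from glial reprogramming in the retina divided. hbegfa, the heparin-binding EGF-like growth factor that triggers dedifferentiation of Müller glia, was found in most positive cells. A hbegfa UMI was found in 47 of 49 positive cells of the injured library, in 21 of 21 of the injured_MTZ library, in both positive cells of the uninjured_MTZ library and not in the 1 positive cell of the uninjured library. Of the uninjured_MTZ cells, 1 shared its barcode with a lin28a-positive cell of the injured library. Its level was 3156 CPM in positive against 562.8 CPM in negative cells of the injured library, a log2 ratio of 2.49 (2.40 to 2.58), and 4526 against 904.4 CPM in the injured_MTZ library, 2.32 (2.24 to 2.41). After thinning, 81.6% of positive and 15.2% of negative cells of the injured library held it, and 95.2% and 24.0% in the injured_MTZ library. Over all fabp7a cells, hbegfa stood at 167.4, 877.5, 371.7 and 1074 CPM in the uninjured, injured, uninjured_MTZ and injured_MTZ libraries.

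crlf1a, a cytokine receptor-like factor of the interleukin 6 family, had log2 ratios of 3.77 (3.06 to 4.52) and 3.19 (2.58 to 3.78), with 26.5% and 44.4% of its UMIs in positive cells from 1 cell. tgif1, a homeobox repressor of TGF-beta signalling, had 1.57 (1.40 to 1.74) and 1.102 (0.896 to 1.302). sox4a, a transcription factor of progenitors and young neurons, had 2.04 (1.76 to 2.32) and 1.44 (0.92 to 1.93). The matrix protease mmp9 had 2.78 (2.49 to 3.07) in the injured library, where 195 UMIs lay in positive cells, 27.2% of them in 1 cell. In the injured_MTZ library mmp9 had 25 UMIs in positive and 4 in negative cells, too few for the 50 UMIs asked of the other genes.

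ascl1a, the proneural factor that acts upstream of lin28a in the retina, had no stable direction. Its log2 ratios were -0.45 (-0.99 to 0.04) and -0.01 (-0.76 to 0.65), both intervals spanning 0, and 7 of 49 and 6 of 21 positive cells held an ascl1a UMI. Over the alternatives run, these ratios ran from -2.62 to 0.79 in the injured and from -0.90 to 0.92 in the injured_MTZ library. stat3 stood at 0.84 (0.45 to 1.22) and 1.13 (0.64 to 1.58), the latter -0.45 after thinning to 2000 UMIs. socs3a, a feedback inhibitor of that pathway, was lower at -1.84 (-1.96 to -1.72) and -1.69 (-1.87 to -1.51). Over fabp7a cells, the Pearson correlation with lin28a was -0.07 and -0.05 for socs3a, but 0.14 and 0.08 for its relative socs3b. The stem cell factor sox2 was lower at -1.58 and -1.31, and id1, an inhibitor of differentiation linked to quiescence, at -1.73 and -1.82. Of 25 measured genes of this list in the injured library 5 were at least 2-fold higher and 8 lower, against 11.1% and 18.4% of all genes, with a median of -0.45 that became 0.09 when genes of 1 UMI were included. Of 24 in the injured_MTZ library 6 were higher and 7 lower, against 11% and 17.2% of all genes, with a median of 0.04 that became -0.20 under TMM scaling.

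Beyond these lists, genes were named by the counting interval of their ratio. The named genes higher in the injured library included several of the nucleolus and of ribosome assembly. npm1a, nucleophosmin, stood at 634.9 CPM in positive against 122.4 CPM in negative cells, a log2 ratio of 2.38 (2.18 to 2.57), and at 1.73 (1.504 to 1.955) in the injured_MTZ library. dkc1, the pseudouridine synthase dyskerin, had 2.77 (2.39 to 3.15) and 1.87 (1.28 to 2.42). Its injured_MTZ ratio rests on 32 UMIs in positive cells, 31.25% of them from 1 cell, and fell as low as 0.73 over the alternatives run. wdr43, a factor of pre-rRNA processing, had 2.19 and 1.69, the latter with 33 UMIs in positive cells, 24.2% of them from 1 cell. pprc1, a coactivator related to PGC-1, had 2.81 (2.53 to 3.10) and 1.56 (1.18 to 1.92), the latter -0.72 after thinning to 2000 UMIs. A list of nucleolar and ribosome assembly genes was drawn up after these values were seen, so its counts restate what prompted it. Of its members 29 of 34 measured were at least 2-fold higher in the injured library, with a median log2 ratio of 1.39, and 17 of 41 in the injured_MTZ library, with a median of 0.88, where 11.1% and 11% of all genes were higher. The 77 cytosolic ribosomal protein genes measured had medians of 0.59 and 0.38, and 1 and 0 of them passed 2-fold.

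tnfrsf21, the death receptor DR6 of the TNF receptor family, was high in both libraries. It stood at 378.9 CPM in positive against 56.1 CPM in negative cells of the injured library, a log2 ratio of 2.76 (2.49 to 3.02), and at 427.5 against 32.0 CPM in the injured_MTZ library, 3.74 (3.40 to 4.07). After thinning, 22.4% of positive and 3.23% of negative cells held it in the injured library, and 33.3% and 1.75% in the injured_MTZ library. epha2a, a receptor for ephrins, had 2.70 and 3.44, although 36.4% of its UMIs in positive cells of the injured_MTZ library came from 1 cell. txnipa, a thioredoxin-interacting protein, had 2.29 and 1.04, the latter with 45.8% from 1 cell. The others were stmn1b, a microtubule regulator (1.94 and 1.31), hmgn2, a nucleosome-binding protein (1.84 and 1.04), and si:ch211-222l21.1 (1.91 and 1.40). In cells with at least 8000 UMIs the injured_MTZ ratio of hmgn2 was -0.51. Over the alternatives run, that of stmn1b fell as low as 0.04 and that of si:ch211-222l21.1 as low as 0.31. In that library 1 cell held 26.7% of the stmn1b, 20.4% of the hmgn2 and 22.7% of the si:ch211-222l21.1 UMIs of positive cells.

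Lower in lin28a-positive cells was her6, a Hes-type repressor. It stood at 195.4 CPM in positive against 1916 CPM in negative cells of the injured library, a log2 ratio of -3.29 (-3.57 to -3.03), and at 158.6 against 1904 CPM in the injured_MTZ library, -3.59 (-4.04 to -3.17). After thinning, 18.4% of positive and 52.4% of negative cells held her6 in the injured library. The tetraspanin cd81b had -4.39 (-6.27 to -3.02) and -4.45 (-6.73 to -2.90), on 4 and 3 UMIs in positive cells. The heat shock gene hsp70.1 had -3.42 and -2.86, the latter on 23 UMIs in positive cells, 52.2% of them from 1 cell. zgc:153704 had -5.19 and -2.74, on 20 and 54 UMIs in positive cells. fezf1, a forebrain transcription factor, had 0 UMIs in positive and 258 in negative cells of the injured library. Set against a floor of 3 UMIs over the positive cells, that is 11.9-fold lower, and the interval of the log2 ratio reached up to -3.26. In the injured_MTZ library it had 5 UMIs in positive and 375 in negative cells, a log2 ratio of -1.88 (-3.51 to -0.65). There 19.0% of positive and 17.1% of negative cells held it on all UMIs.

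**Figure D4:**
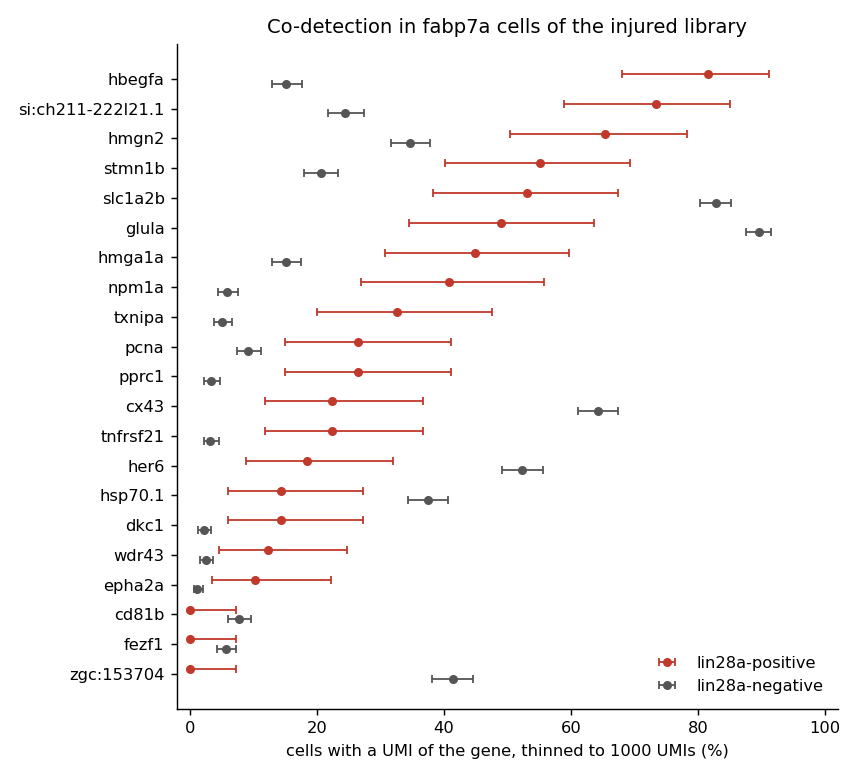
Share of fabp7a cells of the injured library with a UMI of each gene (percent, horizontal axis) after thinning to 1000 UMIs, in 49 lin28a-positive (red) and 928 lin28a-negative cells (grey); points are shares and whiskers exact 95% Clopper-Pearson intervals. hbegfa is found in 81.6% of positive and 15.2% of negative cells, and zgc:153704 in 0 positive and 41.4% of negative cells.

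In the injured_MTZ library the rule for naming genes left few candidates, because no cell was allowed over 10% of the UMIs of the side where a gene was higher and the 21 positive cells are few. It left 13 higher genes, of which parga, which removes poly(ADP-ribose), was past 2-fold at 1.35 (0.23 to 2.30) and f3a, coagulation tissue factor, stood at 0.49 (0.38 to 0.60). With that limit at 20%, chosen after the values were seen, vmp1, a membrane protein of autophagy, led with 2965 CPM in positive against 166.6 CPM in negative cells, a log2 ratio of 4.15 (4.02 to 4.29), and 2.63 (2.48 to 2.78) in the injured library. elovl1b, a fatty acid elongase, had 2.66 here and 1.18 in the injured library, and the guidance ligand slit2 3.18 and 0.18, the latter -0.28 in cells with at least 8000 UMIs. nfil3-5, of a family of leucine zipper repressors, had 2.46, and in the injured library a ratio with an interval of 1.86 to 2.34. The complement gene c7b had 2.63 and 2.80. Lower by the first rule, aqp1a.1, a water channel, had -4.38 (-5.83 to -3.26) in the injured_MTZ library and -0.45 (-0.70 to -0.21) in the injured library, where it stood at 0.58 without cycling cells.

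Genes of the cell cycle were higher as a list. Of those measured, 19 of 24 were at least 2-fold higher in lin28a-positive cells of the injured library and 25 of 28 in the injured_MTZ library, none was 2-fold lower, and the medians were 1.52 and 1.75, against 11.1% and 11% of all genes higher. pcna, the sliding clamp of DNA replication, had log2 ratios of 1.65 and 1.37, and rrm2, of ribonucleotide reductase, 1.76 and 2.06. In the injured_MTZ library 1 cell held 43.3% of the pcna and 50.4% of the rrm2 UMIs of the positive cells. Of the genes used to count a cell as cycling, 16 of 20 and 23 of 24 measured were higher, with medians of 1.48 and 1.83. Among cells with at least 8000 UMIs the medians of the list were 0.34 and 0.53, and pcna stood at 0.58 and 0.54. Depth thus moved with these values. Without the cells counted as cycling, the medians were -0.035 and -0.59 and pcna stood at -0.54 and -0.80. That alternative removes the cells chosen by pcna and other cell-cycle genes, so it cannot tell how positive cells differ in these genes. hbegfa then stood at 3.26 and 1.79, tnfrsf21 at 3.35 and 3.86, npm1a at 3.08 and 2.52 and hmga1a at 1.13 and 1.34. Among cells with at least 8000 UMIs, the same genes stood at 1.81 and 1.93, 1.85 and 3.31, 1.15 and 0.96, and 1.26 and 1.19.

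Radial glial genes were lower as a list. Of 17 measured, 10 were at least 2-fold lower in the injured library and 7 in the injured_MTZ library, where 1 was higher, with medians of -1.42 and -0.87, against 18.4% and 17.2% of all genes lower. The list includes fabp7a, by which the cells were taken. glula, glutamine synthetase, had log2 ratios of -2.20 and -2.22, slc1a2b, a glutamate transporter, -2.09 and -0.88, and cx43, a gap junction protein named after its values were seen, -2.73 and -1.28. gfap itself stood at -0.17 and 0.29, and s100b, a calcium-binding protein, at -0.21 and 0.53. Among cells with at least 8000 UMIs the medians were -1.43 and -0.83. Of the Notch and quiescence list, 6 of 14 and 5 of 14 were lower and 1 was higher in each library, with medians of -0.81 and -0.56, and the Notch target her4.1 had -1.08 and -1.36. Without cycling cells her4.1 stood at -5.65 and -1.85.

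Of 9 measured genes of TNF and NF-kB signalling 4 were at least 2-fold higher in the injured and 6 in the injured_MTZ library, none was lower, and the medians were 0.57 and 1.76, where 11.1% and 11% of all genes were higher. nfkbiaa, the inhibitor that NF-kB induces, had 1.94 (1.72 to 2.16) and 2.52 (2.15 to 2.87), and nfkb2 1.49 (1.14 to 1.84) and 2.57 (2.097 to 3.015). Among cells with at least 8000 UMIs the medians were -0.06 and 1.51. Interferon and antigen presentation genes had 6 of 24 and 10 of 23 higher, with medians of 0.46 and 0.85, and isg15, a ubiquitin-like modifier, stood at 0.90 and 1.27, the latter -1.07 after thinning to 2000 UMIs.

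The counts of the next lists stand against 11.1% and 11% of all genes at least 2-fold higher and 18.4% and 17.2% lower. Cholesterol synthesis genes were lower in the injured library, 10 of 14 with a median of -1.48, and 4 of 16 in the injured_MTZ library, with a median of -0.53. Immediate early genes, which dissociation also raises, were lower in 7 of 16 and 10 of 16, with medians of -0.89 and -1.10. Glycolysis genes were lower in 4 of 15 and 0 of 15, with 0 and 1 higher and medians of -0.61 and -0.40. The heat shock list had 6 of 13 and 3 of 13 lower and 1 higher in each library, with medians of -0.35 and 0.07, the latter -0.17 under TMM scaling and the former -1.42 without barcodes found in more than 1 library. Of the STAT3 pathway, 2 of 13 and 3 of 12 genes were higher and 3 and 3 lower, with medians of 0.22 and -0.04 that ran from -0.27 to 0.64 and from -0.44 to 0.46 over the alternatives run. Proneural genes had 2 of 7 and 1 of 7 higher and none lower, with medians of -0.09 and -0.01 that ran from -0.28 to 0.98 and from -0.25 to 0.36. Of 14 reactive glia genes 4 were higher in the injured library, and 3 higher and 1 lower in the injured_MTZ library, with medians of 0.11, which became -0.03 under TMM scaling, and 0.57. Over the alternatives these ran from -0.49 to 0.83 and from -0.23 to 0.91. timp2b, a metalloprotease inhibitor of the last list, had 2.80 (2.65 to 2.96) in the injured but -0.85 (-1.81 to -0.03) in the injured_MTZ library.

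**Figure D5:**
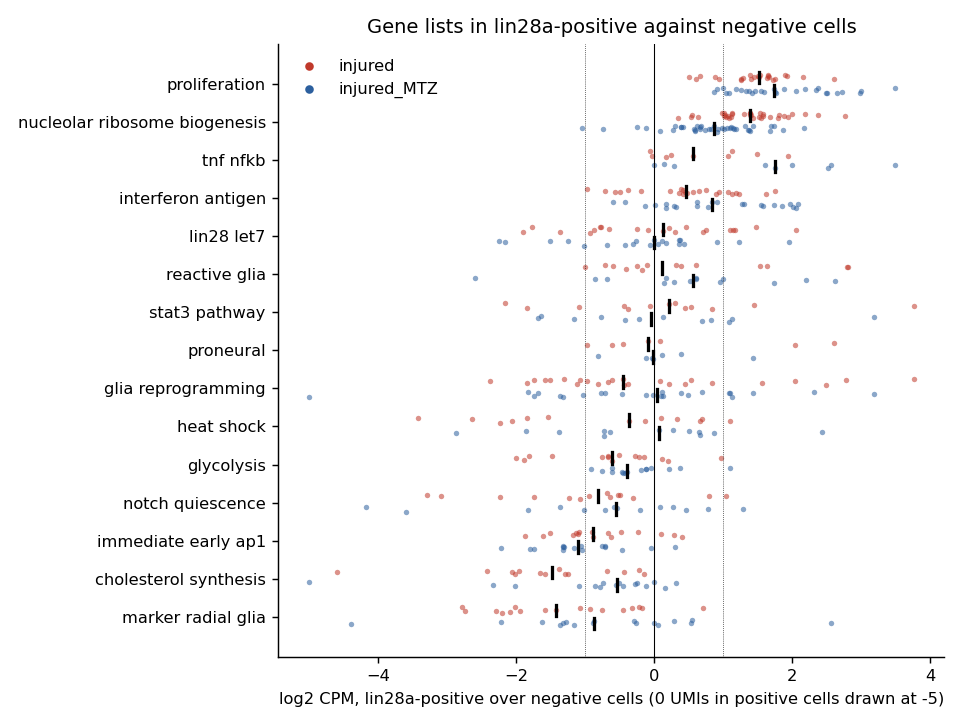
Log2 ratio of CPM in lin28a-positive over negative fabp7a cells (horizontal axis) for the measured genes of each list (vertical axis), in the injured (red) and injured_MTZ library (blue); each point is 1 gene, black bars are medians and dotted lines mark 2-fold, with genes at 0 UMIs in positive cells drawn at the left edge. The cell-cycle list (proliferation) has medians of 1.52 and 1.75 and the radial glia list of -1.42 and -0.87. Most other lists have genes on both sides of 0, but several lie mainly on 1 side, such as immediate early genes with medians of -0.89 and -1.10.

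Markers of other cells were checked in the positive cells. The summed level of 18 microglia and macrophage markers was 1932 CPM in positive and 758.5 CPM in negative cells of the injured library, and 517.1 and 162.2 CPM in the injured_MTZ library. Most of it was apoeb, an apolipoprotein also made by glia, with 1079 of 1147 and 102 of 150 UMIs, and 66.7% of the latter came from 1 cell. After thinning to 2000 UMIs the log2 ratio of apoeb in the injured_MTZ library was -1.45, against 1.56 on all UMIs. In positive cells 10 and 13 of the 18 markers had 0 UMIs. mpeg1.1 was found in no positive cell, and ptprc, the leukocyte antigen CD45, in 0 of 49 and 1 of 21. Immature neuron markers summed to 2516 against 718.9 CPM in the injured and 1665 against 694.1 CPM in the injured_MTZ library. Of these, stmn1b gave 957 of 1494 and 329 of 483 UMIs, and elavl3 had log2 ratios of 2.61 (2.25 to 2.96) and -0.03 (-1.68 to 1.24) and was found in 17 of 49 and 2 of 21 positive cells. Its injured_MTZ ratio ran from -2.95 to 1.72 over the alternatives. Mature neuron markers summed to 288.0 against 205.2 CPM and to 131.0 against 245.6 CPM. Neutrophil markers, which include mmp9, summed to 395.8 against 106.1 CPM and to 155.1 against 57.1 CPM, with mpx and lyz at 0 UMIs in positive cells of the injured library.

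Levels of the remaining markers follow, positive against negative cells, first for the injured and then for the injured_MTZ library. Epithelial markers summed to 954.9 against 452.5 CPM and to 861.8 against 352.1 CPM, all of it from krt8 and krt18a.1 in the injured library. Oligodendrocyte and Schwann cell markers summed to 186.9 against 104.2 CPM and to 131.0 against 87.4 CPM, and T and NK cell markers to 74.1 against 23.7 CPM and 34.5 against 23.0 CPM. Oligodendrocyte precursor markers summed to 225.7 against 197.8 CPM and 165.5 against 246.9 CPM, and endothelial markers to 37.1 against 34.9 CPM and 13.8 against 14.4 CPM. Mural markers stood at 584.4 against 1097 CPM and 1003 against 1086 CPM, and fibroblast markers at 436.2 against 981.8 CPM and 696.4 against 838.2 CPM. Ciliated cell markers stood at 185.3 against 385.3 CPM and 206.8 against 238.1 CPM, and erythrocyte markers at 35.4 against 219.9 CPM and 72.4 against 558.7 CPM. The part of these markers in the ratios above was not tested.

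Across cells, tnfrsf21 had the level most like that of lin28a. Over the 1019 fabp7a cells of the injured library, the Pearson correlation of log-transformed UMIs per 10000 was 0.47 for tnfrsf21, 0.43 for pprc1, 0.41 for hbegfa, 0.39 for npm1a, 0.39 for vmp1, 0.37 for nfil3-5, 0.37 for nppc, a natriuretic peptide, and 0.36 for dkc1. Over the 1342 cells of the injured_MTZ library, tnfrsf21 again ranked first at 0.38 and vmp1 had 0.28, while nppc had 0.12. These cells share a library and differ in depth, and the values are descriptions.

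Across the 4 libraries, the genes that divided their level most as lin28a did included the interferon-stimulated ifit10, isg15, mxb, pkz and stat1b. lin28a had 76.0% of its summed CPM in the injured and 23.4% in the injured_MTZ library. The closest of 9651 genes with at least 100 UMIs was ifit10, with 74.9% and 24.2%, followed by si:dkey-85k7.12, si:ch73-190m4.1, isg15 (71.7% and 22.8%), lgals9l3, mxb, pkz and stat1b. Within the injured library, the log2 ratio between lin28a-positive and negative cells was -0.19 for ifit10 and 0.36 for pkz, an interferon-induced kinase. It was 0.42 for stat1b, 0.47 for si:dkey-85k7.12 and 0.90 for isg15. Past 2-fold were mxb at 1.12, lgals9l3 at 1.39 and si:ch73-190m4.1 at 2.32. The likeness is over 4 libraries only.

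Read over all fabp7a cells of each library, the Lin28 and let-7 list differed little and more of the reprogramming list passed 2-fold. Of 22 measured genes of the Lin28 and let-7 list 1 was at least 2-fold higher in the injured than in the uninjured library and 1 lower, where 5.69% and 5.25% of all genes were, and 0 of 23 differed by 2-fold with MTZ. Of the reprogramming list 4 of 25 were higher and 4 lower, and with MTZ 6 of 24 were higher and 1 lower, against 4.77% and 4.52% of all genes. mmp9 had 0.358, 81.8, 0.852 and 4.68 CPM in the uninjured, injured, uninjured_MTZ and injured_MTZ libraries. These rest on 1, 400, 3 and 29 UMIs, and the injured library was the highest, as for lin28a. crlf1a stood at 2.86, 15.3, 5.68 and 18.7 CPM.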

How the data were processed

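Single-cell 3' RNA libraries (10x Chromium v3) were analysed from the deposited UMI counts per gene and barcode, which carry no normalization. Per the file headers they were made with Cell Ranger 4.0.0, while the submitters' processing notes name version 3.1.0 and the GRCz11 build. How cells were called is not given in the sources used here. Symbols shared by several identifiers (518) were summed, which left 24435 symbols. Barcodes with 300 or more genes and no more than 25% of UMIs from mitochondrial genes were kept, and the top 0.8% per 1000 barcodes by Scrublet score (scanpy 1.11.5) were removed as doublets, which left out 51 cells and kept 4732 of 4857 barcodes. The depth of the libraries was 2942274, 5388743, 3639735 and 7541363 UMIs (uninjured, injured, uninjured_MTZ, injured_MTZ).

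UMIs were summed per library or class and given as CPM with exact Poisson 95% intervals. Ratios carry conditional binomial and shares Clopper-Pearson 95% intervals. No test across samples was possible with 1 library per group. The ratio code was checked on simulated counts. A floor of 3 counts stood in for 0. Genes were called past 2-fold with at least 50 UMIs in the sums. In each lesioned library, named genes are the 10 higher and 5 lower whose interval lies farthest from 0, with a UMI in at least 5% of cells of the higher side and no cell over 10% of its UMIs there. Of other lists, members with most UMIs in positive cells are named. All members of the Lin28 and let-7 and of the glial reprogramming lists could be named. Of the 10 higher genes of the injured_MTZ library, only those described are printed. TMM factors came from edgeR 4.0.16. The gene, lists and rules were chosen with earlier results of these data known. No sequences or coordinates are given, since no genome of the build used was at hand.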

Additional observations from a re-analysis of the deposited data

How the results depend on the processing

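No replicate could be left out and no paired analysis was possible because each group was 1 library. The lesion ratios of lin28a stayed above 0 under all alternatives run, and 126 of the 154 alternative values of the main quantities stayed within the counting interval of the value reported, or within 1.5 times for counts of genes. Without cycling cells, the fabp7a cells of the uninjured library held 0 lin28a UMIs. The log2 ratio of injured over uninjured was then 5.41, set against a floor of 3 UMIs and not against a measured level. Without cycling cells the ratio was 3.85 for injured_MTZ over uninjured_MTZ, with 2 UMIs in the latter, and -2.53 for injured_MTZ over injured. As the mean of the CPM of each cell, the ratios were 2.26 for injured_MTZ over uninjured_MTZ, whose positive cells held 649 and 717 UMIs in all, and -2.30 for injured_MTZ over injured. The injured_MTZ over injured ratio was -1.99 in all kept cells and -1.37 with fabp7a at least 0.4%. Asking for 2 lin28a UMIs gave 0% positive in the uninjured and in the uninjured_MTZ library, as did a stricter filter (800 genes, 10% mitochondrial) in the latter. Thinning to 2000 UMIs gave 4.57% positive in the injured library.

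The counts of genes past 2-fold depend on which genes are measured and which cells are compared. In the injured library, 843 higher and 1394 lower of 7584 genes became 3234 and 6446 of 18158 with genes of 1 UMI. They were 268 and 560 of 3011 with genes of at least 200 UMIs, and 428 higher of 3651 after thinning to 2000 UMIs. In cells with at least 8000 UMIs, an alternative added after seeing the data, they were 212 and 586 of 4333. In the injured_MTZ library they were 2782 and 7615 of 17934 with genes of 1 UMI, and 292 and 513 of 3763 with at least 200. They were 265 and 458 of 3907 in cells with at least 8000 UMIs, and 573 higher of 8245 with TMM scaling. In those deep cells, the genes past 2-fold were a smaller part of the genes measured in both libraries and both directions. Without cycling cells, pcna stood at -0.54 and -0.80 in the injured and injured_MTZ libraries, rrm2 at -0.56 in the injured library, the cell-cycle list at -0.035 and -0.59 and the S and G2/M genes at -0.54 and -0.80, since that alternative removes the cells chosen by these genes. In the injured_MTZ library thinned to 2000 UMIs, with 11 positive cells left, pprc1 stood at -0.72, apoeb at -1.45, isg15 at -1.07 and stat3 at -0.45; in cells with at least 8000 UMIs hmgn2 stood at -0.51. The cause was not tested. Of 1323 values of named genes under alternatives, 949 lay within the counting interval of the value reported and 46 lay on the other side of 0, in 27 of 122 pairs of gene and library. Of these 46, 8 belong to genes at least 2-fold apart on all UMIs, which are the genes just named. Of 415 list medians 49 lay on the other side of 0, in 16 of 32 pairs of list and library. The correlation of tnfrsf21 with lin28a was 0.45 for presence or absence and 0.30 after thinning, and with presence or absence 3 of the 8 genes most like lin28a were the same. Without barcodes found in more than 1 library, also added after seeing the data, the lesion ratios were 8.35 and 7.04, and the heat shock list of the injured library had a median of -1.42.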
